A study of Mus musculus with 6 samples.

Results

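Autophagy genes were examined in an assay of open chromatin from mouse muscle nuclei in which Yap, the coactivator at the end of the Hippo pathway and a partner of TEAD factors, was knocked down. The genes were taken by symbol from a table of read counts at promoters. They comprise the numbered Atg genes, Ulk1 to Ulk4, Wipi1 and Wipi2, the LC3 and GABARAP genes, and a fixed set of lipid kinase, cargo receptor, transcription factor and lysosomal genes, with pseudogenes left out. In all, 43 of the 49366 promoter windows met this rule, and all 43 belong to protein-coding genes. Gabarapl1, a further member of the GABARAP group, was not analysed here.

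ATAC-seq uses a transposase that inserts adapters into open DNA, and here it was applied to nuclei sorted for PCM1, a protein at the surface of muscle fibre nuclei. The 3 LacZ-shRNA replicates came from muscles injected with AAV6:LacZ-shRNA, a viral vector for a short hairpin RNA against a bacterial gene. The 3 Yap-shRNA replicates came from the contralateral muscles, injected with AAV6:Yap-shRNA, whose hairpin was cloned into a plasmid with a CMV promoter and eGFP. All mice were male C57BL/6J, 8 weeks old at injection, and muscles were taken 28 days later. Each replicate pooled 4 gastrocnemius and 4 tibialis anterior muscles, and no group without a vector was included, so every value is from muscle that carried AAV6. Nothing shows which pools shared animals, and the p-values measure the spread between these 6 pools. A hairpin acts on RNA, so the Yap1 promoter window, at 12.1 to 16.7 CPM in LacZ-shRNA and 12.1 to 16.5 CPM in Yap-shRNA, does not measure the knockdown.

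Autophagy delivers parts of the cytoplasm to the lysosome for breakdown. Ulk kinases start the process, a lipid kinase complex built on Beclin 1 marks the membrane, ATG2, ATG9 and WIPI proteins supply and shape it, and a conjugation system attaches LC3 and GABARAP proteins to it, where cargo receptors bind them. In skeletal muscle the pathway is known to be induced by fasting and denervation, FOXO factors are known to activate several of its genes, Bnip3 among them, and TFEB and TFE3 activate genes of autophagy and lysosomes through a DNA element known as CLEAR, whose core is TCACGTGA.

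Window counts totalled 5431766, 3326803 and 8964441 in LacZ-shRNA replicates 1 to 3 and 9560705, 10319467 and 8622014 in Yap-shRNA replicates 1 to 3. Peak counts totalled 3824989, 2588520 and 6871176 against 6578185, 6701781 and 5884288. Levels are given as CPM, the count scaled to library size with TMM factors, and changes as the log2 fold change of Yap-shRNA over LacZ-shRNA with its standard error (SE). Promoter windows of 12 muscle fibre markers had a median of 24.5 CPM per kb, against 3.81 to 6.24 CPM per kb for the satellite cell, fibroblast, endothelial and leukocyte lists. The summed fibre marker level was 1438 CPM in LacZ-shRNA replicate 1, 1882 to 2031 CPM in the other LacZ-shRNA replicates and 1559 to 1777 CPM in Yap-shRNA, and the part of this in the values below was not tested. Exact two-sided permutation tests of the summed marker lists gave p of 0.3 to 0.8, and 3 samples against 3 cannot give less than 0.1. In single windows 0 markers had an edgeR adjusted p under 0.05. At an unadjusted edgeR p under 0.05, 2 of 7 fibroblast and 2 of 9 leukocyte markers were higher (1.9% of all windows). Of the satellite cell markers 1 of 6, and of the endothelial markers 2 of 7, were lower (3.01%). In these lists 0 lay past that p the other way, and 0 of the 12 fibre markers lay past it.

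The promoters of autophagy genes were open in these nuclei. Their median level was 8.55 CPM per kb of window, against 5.71 CPM per kb for all 20540 protein-coding windows, and 28 of the 43 lay above that median. The 43 windows cover 2.02 to 21.4 kb, because a window joins 1 kb on each side of every annotated transcript start. A peak of open chromatin lay within 1 kb of a start in 40 of the 43 genes, the exceptions being Atg7, Atg9b and Pik3r4.

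Wipi1, which encodes a protein that binds phosphatidylinositol 3-phosphate on the forming membrane, had the highest level per kb of the 43. It stood at 36.5, 45.2 and 53.2 CPM per kb in LacZ-shRNA replicates 1 to 3 and at 45.7, 34.5 and 37.7 CPM per kb in Yap-shRNA replicates 1 to 3. The groups overlapped across most of their range. Gabarap followed at a mean of 19.6, Tfeb at 18.7 and Map1lc3a at 18.6 CPM per kb, and these means differ by less than the spread between replicates. All 4 LC3 and GABARAP genes lay between 13.95 and 19.6 CPM per kb, and their median of 16.6 CPM per kb was the highest of the 8 role groups.

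**Figure D1:**
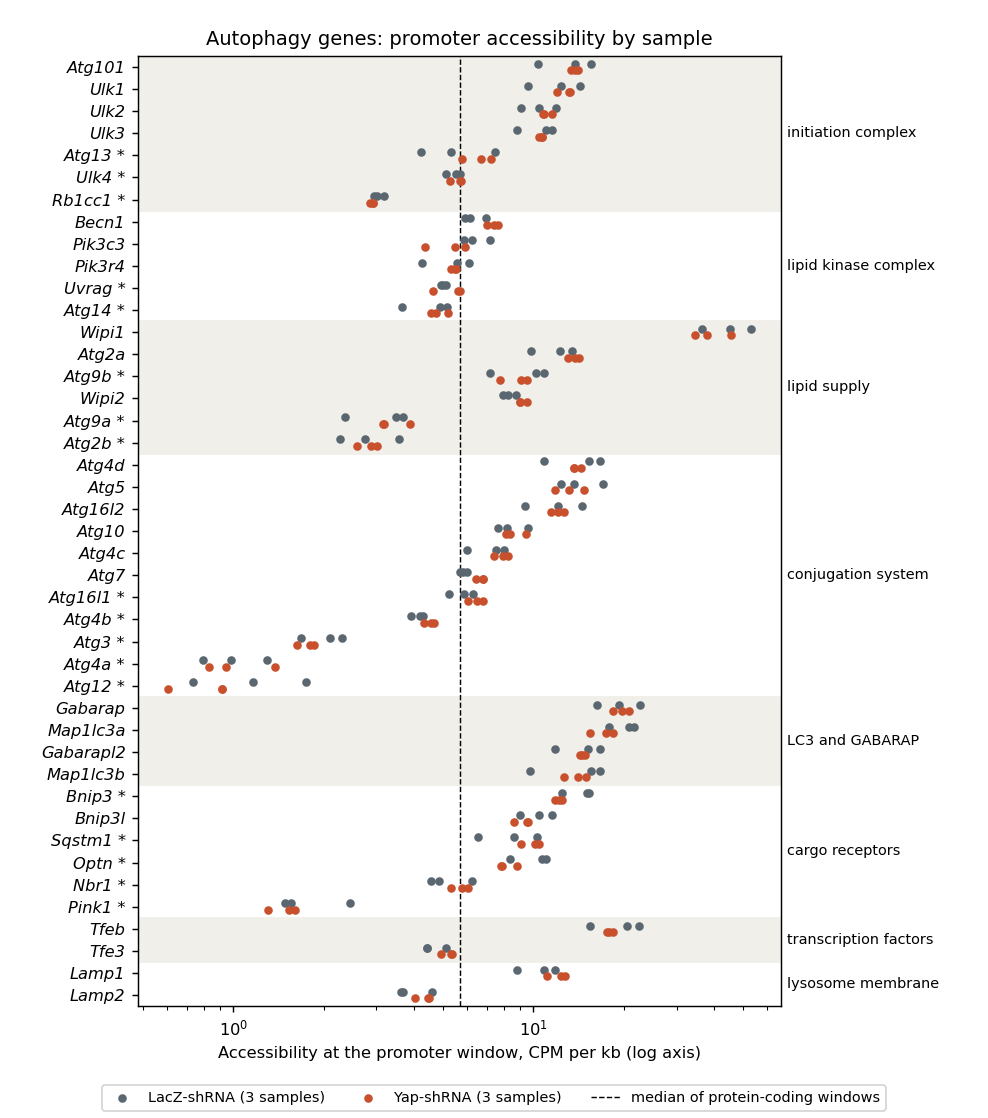
Accessibility of each autophagy gene's promoter window in CPM per kb (log axis), 1 point per sample, genes ordered by role and level, with an asterisk for a window that overlaps the window of another gene. Wipi1 stands highest at a mean of 42.2 CPM per kb, the LC3 and GABARAP genes lie together to the right of the protein-coding median (dashed line), and the LacZ-shRNA points are spread more widely than the Yap-shRNA points in most rows.

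At the other end were Atg12 and Atg4a, a ubiquitin-like protein and a protease of the conjugation system, with means of 1.01 and 1.04 CPM per kb, and Pink1, the kinase that marks damaged mitochondria, with 1.65 CPM per kb. These low levels did not come with closed promoters. The promoter peak of Pink1 held 75.3 CPM on average, that of Atg12 32.2 CPM and that of Atg4a 18.1 CPM. The windows of these genes, and that of Atg3, the E2-like enzyme that transfers LC3 to lipid, overlap the window of another gene, as 18 of the 43 windows do (21.0% of all windows), and counts of overlapping windows are uncertain.

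The window of Atg12 held 0.078 of the counts of its promoter peak, that of Pink1 0.118, that of Atg3 0.272 and that of Atg4a 0.340. No other overlapping window with a promoter peak held under 0.5 of its peak, and none of the windows that stand alone did. For these 4 genes the peak is the fuller measure of the promoter. Its log2 fold change was 0.02 for Atg12 (SE 0.14), -0.05 for Pink1 (SE 0.12), 0.06 for Atg3 (SE 0.13) and -0.15 for Atg4a (SE 0.17). The window values were -0.42 (SE 0.40), -0.23 (SE 0.25), -0.23 (SE 0.22) and -0.04 (SE 0.30), with the larger SE in each gene.

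**Figure D2:**
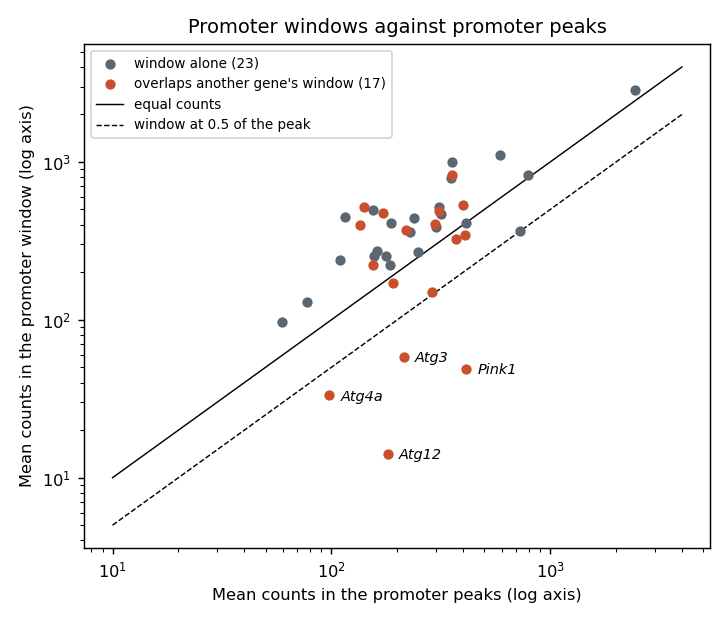
Mean counts per sample in the promoter window against mean counts in the promoter peaks for the 40 autophagy genes with a promoter peak (both axes log), with lines for equal counts and for a window at 0.5 of the peak. Pink1, Atg12, Atg3 and Atg4a, all with windows that overlap another, lie below the lower line.

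No autophagy promoter window passed the test between Yap-shRNA and LacZ-shRNA. At an edgeR quasi-likelihood adjusted p under 0.05, 0 of the 43 were called, where 11 of all 49366 windows (0.0223%) were, and the smallest adjusted p was 0.946. DESeq2 (which gave no adjusted p for 7 of the genes), limma voom and the likelihood-ratio test also called 0. At an unadjusted p under 0.05, 0 were higher in Yap-shRNA (1.9% of all windows) and 1, Optn, was lower (3.01%). All Yap-shRNA samples lay above or below all LacZ-shRNA samples in 6 of the 43, where 10.1% of all windows did so. The log2 fold changes ran from -0.42 for Atg12 to 0.24 for Atg13, with a median of 0.03 against -0.01 over all windows, and 40 of 43 were within 0.25 of 0, with a median SE of 0.14.

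**Figure D3:**
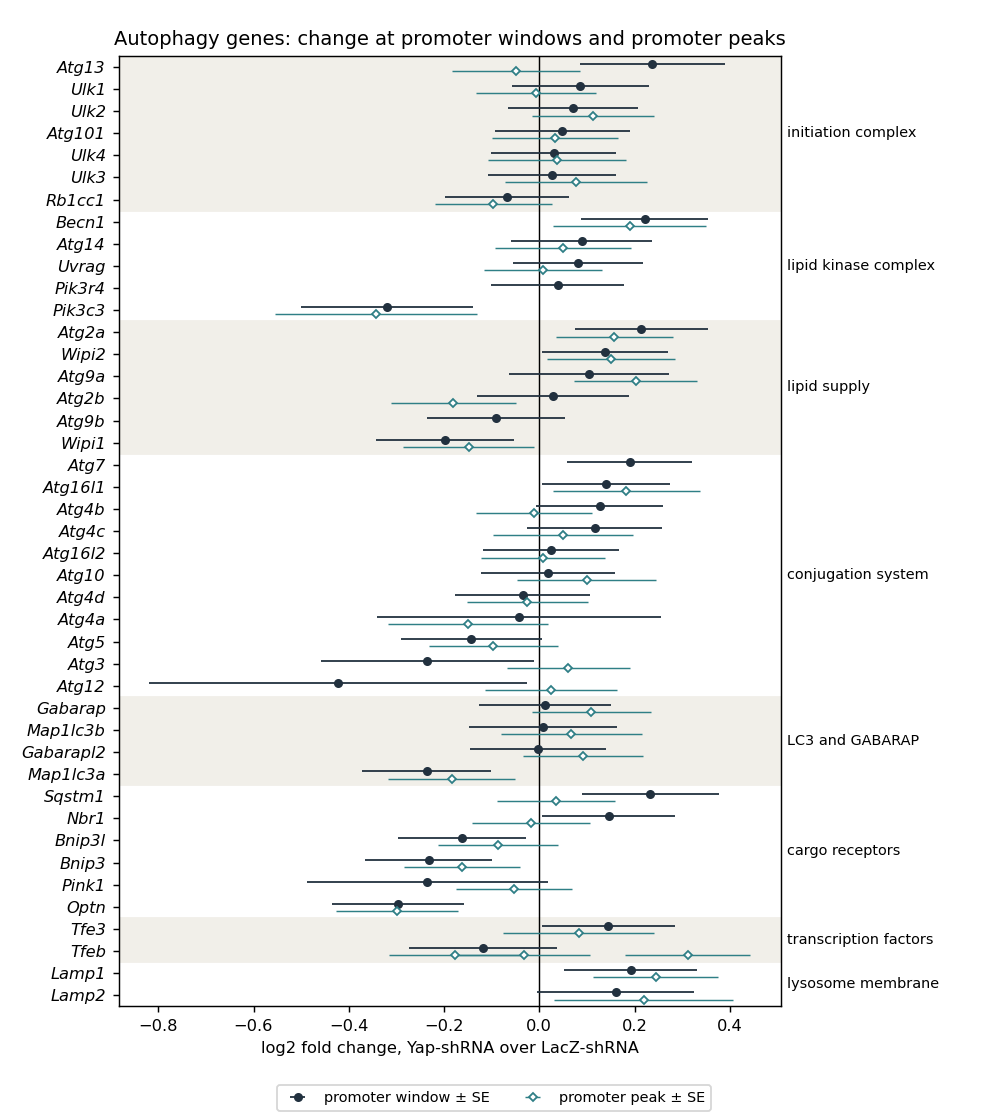
Log2 fold change of Yap-shRNA over LacZ-shRNA with its SE for the promoter window (filled) and the promoter peaks (open) of each autophagy gene, by role. Values lie on both sides of 0 in 7 of the 8 role groups. For Atg12 and Atg3 the window value lies below the peak value and has the larger SE. These windows hold under 0.5 of the counts of their peaks.

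The LacZ-shRNA libraries were the more variable, and LacZ-shRNA replicate 1 was the lowest LacZ-shRNA sample in 32 of the 43 genes (52.5% of protein-coding windows) and the lowest of all 6 in 25 (41.9%). The summed level over the 43 windows was 2124 CPM in that library, 2677 and 2687 CPM in the other LacZ-shRNA replicates and 2468 to 2570 CPM in Yap-shRNA. The coefficient of variation between replicates had a median of 15.8% in LacZ-shRNA and 5.75% in Yap-shRNA, against 15.9% and 8.10% over protein-coding windows, and it was larger in LacZ-shRNA in 39 of the 43 genes and in 81.1% of protein-coding windows. The smallest window totals were also in LacZ-shRNA, 3326803 in replicate 2 and 5431766 in replicate 1. The part of library depth in this spread was not tested. Without LacZ-shRNA replicate 1 the median log2 fold change over the 43 was -0.07 and 15 values were positive instead of 27, while the median over all windows was 0.0036, with 50.7% positive instead of 47.3%. In the same fit 7 of the 43 were lower at an unadjusted p under 0.05, where 4.27% of all windows were, and 0 of the 43 were called, where 157 of all windows were. Without LacZ-shRNA replicate 3 the median moved the other way, to 0.12 over the 43 and -0.01 over all windows, with 0 of the 43 past that p.

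Among the initiation genes, Ulk1, the kinase that receives signals from mTORC1 and AMPK, held 110.9, 165.7 and 142.5 CPM in LacZ-shRNA and 152.6, 138.5 and 151.9 CPM in Yap-shRNA. The groups overlapped (log2 fold change 0.09, SE 0.14), and the sign turned without LacZ-shRNA replicate 1. Atg13, the adaptor of the complex, had the smallest p of the 7 initiation genes. It held 42.5, 74.98 and 53.5 CPM against 67.1, 58.4 and 72.7 CPM (0.24, SE 0.15, edgeR adjusted p = 0.946), and its promoter peak was at -0.05 (SE 0.14). Rb1cc1, the scaffold FIP200, was the only initiation gene whose groups did not overlap, with LacZ-shRNA at 63.1 to 67.9 CPM and Yap-shRNA at 61.1 to 62.7 CPM, a log2 fold change of -0.07 (SE 0.13).

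In the lipid kinase complex, Becn1, its Beclin 1 subunit, held 49.6, 58.0 and 51.5 CPM in LacZ-shRNA and 61.9, 58.6 and 63.9 CPM in Yap-shRNA. All Yap-shRNA samples were above all LacZ-shRNA samples, by 0.22 on the log2 scale (SE 0.13, edgeR adjusted p = 0.946). Pik3c3, the catalytic subunit VPS34, lay the other way, at 13.6, 12.8 and 15.6 CPM against 9.47, 11.9 and 12.9 CPM (-0.32, SE 0.18, edgeR adjusted p = 0.946). Its promoter peak, at 11.04 to 13.3 CPM in LacZ-shRNA and 8.49 to 10.4 CPM in Yap-shRNA, did not overlap between groups (-0.34, SE 0.21, edgeR adjusted p = 0.7001). Pik3r4, Atg14 and Uvrag had log2 fold changes of 0.04 to 0.09, all under their SE.

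Of the genes that supply lipid and membrane, Atg2a, which encodes a lipid transfer protein, had the smallest p. Its window held 97.7, 134.3 and 122.2 CPM in LacZ-shRNA and 142.1, 130.4 and 136.9 CPM in Yap-shRNA (0.21, SE 0.14, edgeR adjusted p = 0.949). Wipi2, which recruits the conjugation machinery, was the only gene of this group with separate groups, at 46.7 to 51.7 against 53.1 to 56.0 CPM (0.14, SE 0.13). Wipi1 was at -0.20 (SE 0.15).

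In the conjugation system, Atg7, the E1-like enzyme that activates ATG12 and LC3, held 91.5, 96.1 and 93.4 CPM in LacZ-shRNA and 103.2, 108.7 and 108.6 CPM in Yap-shRNA. The groups were apart and the replicates close together, with a log2 difference of 0.19 (SE 0.13, edgeR adjusted p = 0.949). It stayed between 0.17 and 0.21 when any single library was left out. Atg7 has no promoter peak, and its window covers 16.0 kb at 6.25 CPM per kb, near the protein-coding median of 5.71 CPM per kb. Atg4b, the main LC3 protease, was also apart, at 39.6 to 43.6 against 43.8 to 47.3 CPM (0.13, SE 0.13). The other 9 genes of the system overlapped, and 6 of all 11 had a positive value.

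The 4 genes for the proteins attached to the membrane had values on both sides of 0, none past the test. Map1lc3a, which encodes LC3A, held 46.5, 53.8 and 56.1 CPM in LacZ-shRNA and 40.1, 45.2 and 47.6 CPM in Yap-shRNA (-0.24, SE 0.14, edgeR adjusted p = 0.946). Its promoter peak was 135.5, 140.5 and 148.5 CPM against 111.1, 128.5 and 134.6 CPM, with all Yap-shRNA samples below all LacZ-shRNA samples (-0.18, SE 0.13). Its window kept its sign in 16 of 16 alternative analyses. For Gabarap, Map1lc3b and Gabarapl2 the window values were 0.01, 0.01 and -0.00 on the log2 scale, and their signs turned under other settings, Gabarap and Map1lc3b with an abundance offset and Gabarapl2 with scaling by library size alone. Map1lc3b held 23.0, 39.1 and 36.6 CPM in LacZ-shRNA and 33.2, 35.3 and 29.8 CPM in Yap-shRNA. Gabarap held 43.4, 51.6 and 60.3 against 55.6, 52.6 and 49.3 CPM, and Gabarapl2 held 27.9, 35.9 and 39.4 against 35.1, 33.9 and 34.3 CPM.

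The 6 cargo receptor and mitophagy genes had 4 negative and 2 positive window values. Optn (ENSMUSG00000026672, chr2:5020642-5064051), which encodes the ubiquitin-binding receptor optineurin, held 45.0, 58.0 and 59.5 CPM in LacZ-shRNA and 42.3, 42.5 and 47.6 CPM in Yap-shRNA. The groups overlapped only through LacZ-shRNA replicate 1, with a log2 difference of -0.30 (SE 0.14, edgeR adjusted p = 0.946). Sqstm1, the receptor p62, held 48.8, 76.6 and 64.4 CPM against 77.5, 67.9 and 75.7 CPM (0.23, SE 0.14), while its promoter peak was at 0.03. Bnip3 (ENSMUSG00000078566, chr7:138890836-138909519), a mitophagy receptor of the outer mitochondrial membrane, held 50.3, 62.2 and 61.1 CPM against 47.9, 49.3 and 50.2 CPM. Its groups were apart, by -0.23 (SE 0.13, edgeR adjusted p = 0.946). The windows of Optn, Sqstm1 and Bnip3 overlap that of another gene.

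Tfeb and Tfe3 encode the transcription factors of lysosomal and autophagy genes. Tfe3 held 27.0, 26.9 and 31.2 CPM in LacZ-shRNA and 29.9, 32.6 and 32.5 CPM in Yap-shRNA (0.15, SE 0.14). Tfeb (ENSMUSG00000023990, chr17:47737030-47792419) held 302.8, 400.8 and 440.2 CPM against 344.6, 350.1 and 360.0 CPM, with all Yap-shRNA samples inside the LacZ-shRNA range (-0.12, SE 0.16). Lamp1, a glycoprotein of the lysosomal membrane, held 35.3, 43.6 and 47.3 CPM against 49.3, 44.3 and 51.0 CPM (0.19, SE 0.14), and Lamp2 was at 0.16 (SE 0.17).

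Other genes of the pathway were read from 4 lists with 81 measured genes. Of these, 0 were called by edgeR (0.0223% of all windows), DESeq2 or limma voom. At an unadjusted edgeR p under 0.05, 2 were higher (1.9% of all windows) and 4 lower (3.01%). Npc2, a cholesterol carrier of the lysosome, had the smallest p, at 7.42, 11.9 and 11.7 CPM in LacZ-shRNA and 14.7, 13.2 and 19.8 CPM in Yap-shRNA (0.62, SE 0.20, edgeR adjusted p = 0.946). Its window, at a mean of 3.09 CPM per kb, overlaps that of another gene, so its counts are uncertain. Rab7, a GTPase of late endosomes and lysosomes, had all Yap-shRNA samples below all LacZ-shRNA samples (-0.31, SE 0.13). Stbd1, a receptor for glycogen, was at -0.36 (SE 0.15) and Tfec, a relative of Tfeb, at -0.37 (SE 0.17). The 18 upstream genes were those of the mTORC1, AMPK and FOXO systems with Mitf and Tfec. Of these 13 had a negative value, with a median of -0.09, and 0 were called. Over all 49366 windows 26007 had a negative value, with a median of -0.01.

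Peaks were assigned to a gene as promoter peaks within 1 kb of a start, gene body peaks elsewhere inside the gene, and distal peaks within 50 kb of a start. This gave 222 peaks for the 43 genes, of which 42 were promoter, 52 gene body and 128 distal peaks. Of the distal peaks, 113 had the start of another coding gene nearer and 62 lay within 1 kb of such a start, so the distance does not show which gene a distal peak serves. In this set 1 peak was called by edgeR, where 0.618% of all 36097 peaks were. At an unadjusted p under 0.05, 10 were higher in Yap-shRNA (3.59% of all peaks) and 11 were lower (5.31%). The 10 became 4 when LacZ-shRNA replicate 1, or else Yap-shRNA replicate 3, was left out and 16 without LacZ-shRNA replicate 3, and the 11 became 20 without LacZ-shRNA replicate 1 and 7 without Yap-shRNA replicate 2. Groups did not overlap in 39 peaks, 19 higher and 20 lower, where 13.3% of all peaks were so. The median log2 fold change was 0.04, against -0.00 over all peaks.

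**Figure D4:**
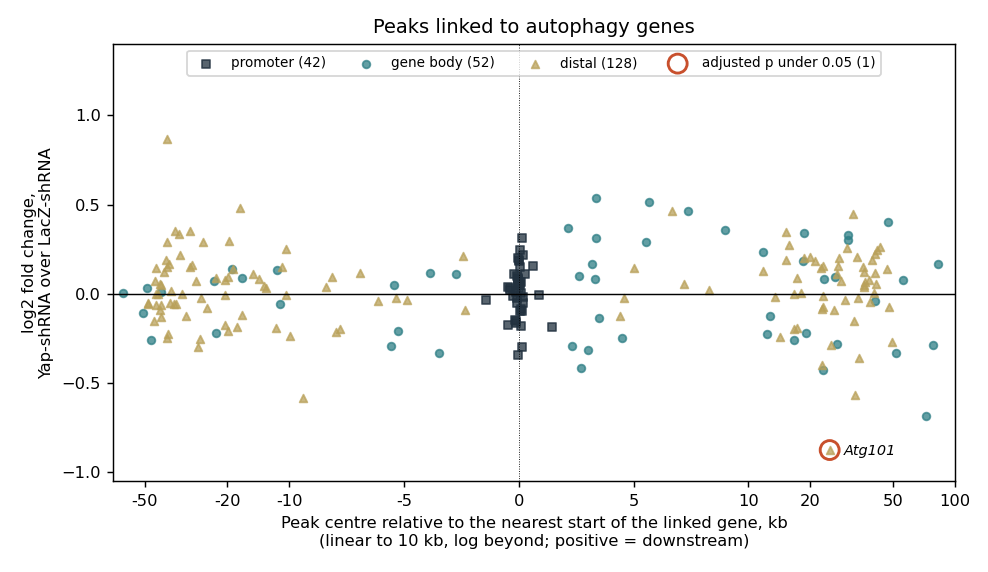
Log2 fold change of the 222 peaks against the distance of the peak centre from the nearest start of the assigned gene, in kb (linear to 10 kb and log beyond, positive values downstream). Promoter peaks lie between -0.34 and 0.31, and the single peak with an adjusted p under 0.05 is a distal peak near Atg101 at -0.88.

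The called peak, chr15:101311107-101311906 (GRCm38), lies outside Atg101, 24.4 kb downstream of a start of that gene, which encodes the partner of ATG13 in the Ulk complex. Whether the peak lies inside another gene was not examined. It held 93.4, 109.5 and 95.01 CPM in LacZ-shRNA and 44.0, 53.8 and 64.0 CPM in Yap-shRNA. Every Yap-shRNA sample was far below every LacZ-shRNA sample, and accessibility fell by 0.88 on the log2 scale (SE 0.13, edgeR adjusted p = 4.69e-05). It kept its sign in 16 of 16 alternative analyses, with an adjusted p of at most 0.00891. The promoter peak of Atg101 was at 0.03 (SE 0.13) and the 11 other distal peaks assigned to it lay between -0.19 and 0.19. The nearest coding start is that of another gene, 6030408B16Rik, at 17.9 kb. The middle 300 bases of the peak, chr15:101311357-101311656 on the plus strand, are shown because they hold an unbroken run of 32 C bases, in capitals.

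Atg101-linked distal peak: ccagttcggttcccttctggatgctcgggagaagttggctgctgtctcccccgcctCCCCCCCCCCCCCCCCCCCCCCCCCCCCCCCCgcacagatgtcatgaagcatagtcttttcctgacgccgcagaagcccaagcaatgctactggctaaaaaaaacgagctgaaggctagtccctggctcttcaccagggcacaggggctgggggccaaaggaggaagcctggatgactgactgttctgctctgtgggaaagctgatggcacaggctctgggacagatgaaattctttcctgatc

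Runs of 15 or more G, or of 15 or more C, occurred in 6 of the 222 peaks and in 1.13% of all peaks. The other 5 such peaks, near Atg9a, Lamp1, Becn1 and Optn, had adjusted p of 0.422 to 0.978. The part of the run in the result was not tested.

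The next 3 peaks by p did not pass. A distal peak 32.6 kb from a start of Atg7 (chr6:114888769-114889548) held 25.7, 31.0 and 24.7 CPM in LacZ-shRNA and 18.4, 17.6 and 17.9 CPM in Yap-shRNA (-0.57, SE 0.15, edgeR adjusted p = 0.0783). It holds the TEAD letters, ACATTCC on either strand, and the start of Vgll4, which encodes a cofactor of TEAD factors, is nearer, at 13.7 kb. An intronic peak of Atg10, the E2-like enzyme for ATG12, held 13.4, 16.1 and 16.9 against 10.2, 9.87 and 8.93 CPM (-0.69, SE 0.20, edgeR adjusted p = 0.116). A distal peak 6.07 kb from a start of Ulk1, which contains a start of Pus1, held 22.7, 24.6 and 23.3 against 29.5, 35.0 and 32.4 CPM (0.46, SE 0.14, edgeR adjusted p = 0.161). In each of the 3 the groups were well apart, and the sign was the same in all 16 alternatives.

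Bnip3 had the fifth smallest p of the 222, at a peak in its intron, and the other peaks of the gene were read after these values were seen. The intronic peak (chr7:138906032-138907549) held 37.5, 55.6 and 44.0 CPM in LacZ-shRNA and 34.0, 36.3 and 30.6 CPM in Yap-shRNA. The groups did not overlap (-0.42, SE 0.14, edgeR adjusted p = 0.206). The distal peak at 21.9 kb held 35.0, 42.0 and 32.1 against 25.6, 29.04 and 26.5 CPM (-0.40, SE 0.14). The distal peak at 33.6 kb held 34.5, 36.5 and 31.7 against 23.5, 25.6 and 30.4 CPM (-0.36, SE 0.14), and the promoter peak held 55.3, 55.6 and 60.5 against 51.1, 53.1 and 49.8 CPM (-0.16, SE 0.12). In all 4 every Yap-shRNA sample was below every LacZ-shRNA sample, where groups did not overlap, in either direction, in 13.3% of all peaks. In all, 5 of the 6 peaks assigned to Bnip3 had a negative value, none with an adjusted p under 0.2, and the start of Ppp2r2d is nearer to both distal peaks named. The motif stretches of these peaks are shown with the letters searched in capitals, GTAAACA for FOXO and GGAATGT, the other strand of ACATTCC, for TEAD, on the plus strand of GRCm38.

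Bnip3 intronic peak, FOXO, chr7:138907073-138907139: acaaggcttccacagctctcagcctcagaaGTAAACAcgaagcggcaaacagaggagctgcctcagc
Bnip3 distal peak at 21.9 kb, FOXO, chr7:138875600-138875666: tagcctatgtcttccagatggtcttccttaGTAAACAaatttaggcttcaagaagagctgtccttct
Bnip3 distal peak at 33.6 kb, TEAD, chr7:138863527-138863593: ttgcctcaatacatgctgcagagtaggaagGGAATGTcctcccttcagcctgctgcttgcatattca

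Optn was the gene with the smallest p among the windows, and its peaks were likewise read after its values were seen. The promoter peak held 40.3, 50.1 and 46.3 CPM in LacZ-shRNA and 36.4, 36.0 and 38.2 CPM in Yap-shRNA (-0.30, SE 0.13, edgeR adjusted p = 0.438). A peak over exons inside the gene, chr2:5040214-5041125, held 28.8, 27.2 and 33.1 against 24.9, 23.3 and 23.7 CPM (-0.33, SE 0.14, edgeR adjusted p = 0.438). The groups were apart in 4 of the 5 peaks inside or at the start of the gene, all negative, where 13.3% of all peaks were apart. The 2 distal peaks were at -0.09 and -0.01. The promoter peak and the peak over exons hold the TEAD letters, as 23 of the 222 peaks do.

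Optn promoter peak, TEAD, chr2:5063271-5063337: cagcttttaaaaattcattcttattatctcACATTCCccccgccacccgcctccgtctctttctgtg
Optn gene body peak, TEAD, chr2:5040792-5040858: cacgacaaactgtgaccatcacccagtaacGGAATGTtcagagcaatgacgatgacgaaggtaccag

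Tfeb was the one autophagy gene with 3 promoter peaks, and their values lay on both sides of 0. The peak at the 5′ end of the gene, chr17:47736685-47740184, held 176.1, 197.4 and 215.4 CPM in LacZ-shRNA and 173.2, 177.5 and 171.2 CPM in Yap-shRNA (-0.18, SE 0.14). The middle peak was at -0.03 (SE 0.14). The peak farthest downstream, chr17:47767727-47771029, held 65.4, 68.8 and 92.1 against 89.5, 96.6 and 98.9 CPM (0.31, SE 0.13, edgeR adjusted p = 0.426). The groups overlapped there only through LacZ-shRNA replicate 3, without which the edgeR adjusted p was 0.0302. In that fit 447 of all peaks were called, against 223 with all 6 samples. With any other single library left out, the edgeR adjusted p of this peak was 0.508 to 0.897.

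The ratio of the downstream to the 5′ peak, which does not depend on library scaling, was chosen after these values were seen. It was 0.372, 0.348 and 0.427 in LacZ-shRNA and 0.517, 0.544 and 0.578 in Yap-shRNA, a mean of 0.383 ± 0.041 against 0.546 ± 0.030 (SD, n = 3). The groups did not overlap, but the 2 peaks were picked for their opposite values, so this is a description and no test.

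**Figure D5:**
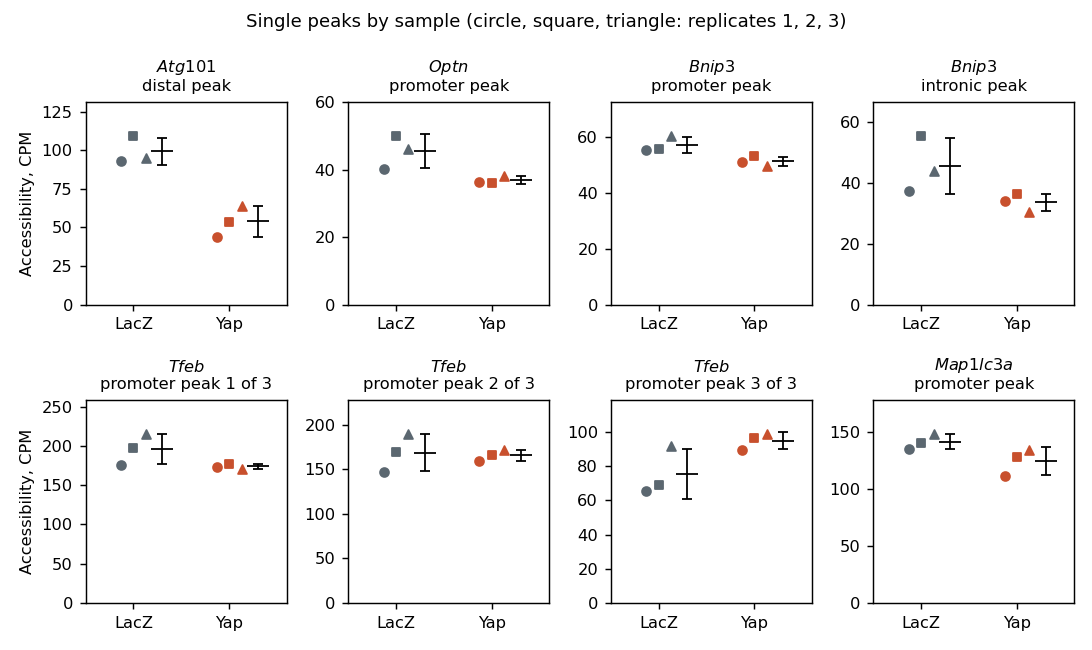
Accessibility in CPM of 8 single peaks by sample (axes from 0, markers for replicates, bars for mean ± SD of 3 samples). The distal peak near Atg101 is separated widely, the Optn and Bnip3 peaks narrowly, and the third Tfeb promoter peak lies the other way from the first.

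Promoter sequences of RefSeq (GRCm38.p6, 250 bases before to 50 after the start) matched 36 of the 43 genes, with 42 promoters. The E-box CACGTG, which reads the same on both strands, occurred in the promoters of Atg14, Atg3, Atg5, Atg7, Bnip3 and Lamp1. These are 6 of the 36 genes and 6 of the 42 promoters, against 7.15% of all promoters. The longer CLEAR core TCACGTGA contains the E-box, and within these stretches it occurred in Atg3 alone (0.974% of all promoters). The promoter peaks of Lamp1 and Atg10 also hold the core. The TEAD letters ACATTCC and the FOXO letters GTAAACA were in 0 of the 42 promoters, where 3.85% and 3.65% of all promoters hold them. The antioxidant response element TGACNNNGC was in those of Atg13, Map1lc3b and Ulk2 (12.4% of all promoters). The Lamp1 promoter is shown because it holds 4 E-boxes within its last 61 bases before the start, and those of Atg3, Atg5 and Bnip3 for comparison, each read along its gene with the element in capitals.

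Lamp1, chr8:13159060-13159160, plus strand: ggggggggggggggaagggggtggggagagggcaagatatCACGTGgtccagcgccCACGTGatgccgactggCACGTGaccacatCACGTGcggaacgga
Atg3, chr16:45158746-45158775, plus strand: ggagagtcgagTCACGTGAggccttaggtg
Atg5, chr10:44268285-44268338, plus strand: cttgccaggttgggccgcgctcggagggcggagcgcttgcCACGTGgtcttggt
Bnip3, chr7:138909569-138909654, minus strand: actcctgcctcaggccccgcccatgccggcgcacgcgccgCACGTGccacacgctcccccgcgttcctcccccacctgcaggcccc

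The CLEAR core was in 6 of the 222 peaks (2.70%, against 1.23% of all peaks), and after its values were seen this set was described further. All 6 peaks had a positive log2 fold change, with a median of 0.25, where 56.3% of the 222 peaks and 60.3% of all 441 peaks with the core did. Of the 6, and of all 441, 0 were called. A distal peak 17.1 kb from a start of Lamp2 held 9.04, 5.94 and 7.51 CPM in LacZ-shRNA and 11.1, 11.5 and 9.26 CPM in Yap-shRNA (0.48, SE 0.24, edgeR adjusted p = 0.559). An intronic peak of Atg4c held 4.65, 5.10 and 7.51 against 8.20, 9.03 and 8.77 CPM (0.52, SE 0.27, edgeR adjusted p = 0.592). The Lamp1 promoter peak held 31.2, 37.4 and 41.8 against 44.8, 42.0 and 45.7 CPM (0.24, SE 0.13, edgeR adjusted p = 0.612).

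The fourth, 42.6 kb from a start of Atg9a and at a start of Cnppd1, held 26.0, 27.2 and 28.4 against 32.4, 31.7 and 34.2 CPM (0.26, SE 0.14). The groups did not overlap in these 4 peaks, where they did not in 39 of the 222 peaks and in 13.3% of all peaks. The promoter peaks of Atg10 (0.10, SE 0.15) and Atg3 (0.06, SE 0.13) overlapped. All 6 values stayed positive in the alternatives that kept all 6 peaks, apart from leaving out Yap-shRNA replicate 2, where 4 did.

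Atg4c intronic peak, CLEAR core, chr4:99199897-99199944: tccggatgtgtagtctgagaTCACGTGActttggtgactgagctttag
Atg9a-linked distal peak, CLEAR core, chr1:75142715-75142762: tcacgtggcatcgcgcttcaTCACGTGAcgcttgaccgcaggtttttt
Atg10 promoter peak, CLEAR core, chr13:91223738-91223785: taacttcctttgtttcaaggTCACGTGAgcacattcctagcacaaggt

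Of the other elements, the FOXO letters were in 37 of the 222 peaks (16.7%, against 8.28% of all peaks), the TEAD letters in 23 (10.4% against 8.96%), the E-box in 42 (18.9% against 16.4%) and the antioxidant response element in 93 (41.9% against 29%). The 222 peaks had a median width of 1127 bases, against 902 for all peaks, and the part of width in these shares was not tested. Of the 23 peaks with the TEAD letters 9 had a positive value, with a median of -0.02. Of these edgeR called 0, where it called 30 of all 3224 peaks with these letters. At an unadjusted edgeR p under 0.05, 1 of the 23 was higher and 4 were lower, against 131 and 291 of the 3224. Of all 3224 peaks with these letters 45.4% were positive. With the abundance offset 12 of the 23 were positive. Of the 37 peaks with the FOXO letters 15 were positive (46.3% of all 2979 such peaks), 23 with the abundance offset. Of the 37, 0 were called, where 21 of the 2979 were.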

How the data were processed

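ATAC-seq reads were processed by the authors, who per their processing notes and methods mapped to GRCm38 with BWA 0.7.17, used SAMtools 1.8 and MACS 1.4.2-1, and counted reads with featureCounts 1.5.0. The deposited values are whole-number counts per promoter window and per peak, not normalized, with rows of a mean count under 10 absent. Whether a mapping quality minimum applied to these tables is not given in the sources used here. A read in 2 overlapping windows may count for neither.

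Counts of all 49366 windows and all 36097 peaks were fitted with edgeR 4.0.16 in R 4.3.3 (quasi-likelihood test, TMM factors, no covariate, Benjamini-Hochberg over the whole table, threshold 0.05), and the autophagy genes were read from that fit. The fits were checked on simulated data. Windows were located with GENCODE M21. Replicates of a group differed by more than counting error (lowest chi-square per window 1.95).

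Genes given with all sample values are those with an unadjusted p under 0.05, the smallest p of each role group, the 3 highest and 3 lowest levels per kb, the LC3 and GABARAP genes, Tfeb, Tfe3, Ulk1, Becn1, Sqstm1 and Bnip3. Atg12, Atg4a and Pink1 are given by their means. Of the peaks, the called one and the 5 with the smallest p are named, and of the other lists those with the smallest p. Members, lists and motifs were chosen with earlier results of these data known. As alternatives, DESeq2 1.42.0, voom in limma 3.58.1, the likelihood-ratio test of edgeR, library size alone, RLE factors, an abundance offset, a mean count of at least 50, at least 10 counts in every sample, removal of the most abundant 1%, a replicate block and leaving out each library were run.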

Additional observations from a re-analysis of the deposited data

How the results depend on the processing

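The count of 0 called promoter windows among the 43 autophagy genes was the same in all 16 alternative fits. Not every fit covered all 43. A mean count of at least 50, and removal of the most abundant 1%, each left 40 windows, and in DESeq2 an adjusted p was missing for 7. Lowering the threshold to 0.01, or keeping only windows that overlap no other, adds no check, because 0 windows passed 0.05 in the main fit. The count of 1 called peak was 2 with library size alone (a distal peak of Ulk1 in addition) and with the likelihood-ratio test (a distal peak of Atg7), 1 to 2 when single libraries were left out, and 0 among promoter peaks alone or promoter and gene body peaks, which do not include the distal peak. In the 4 other lists 0 to 1 genes were called when single libraries were left out, with 1 only without LacZ-shRNA replicate 1. Library size alone raised the all-peak median log2 fold change from -0.0026 to 0.14 and that of the 222 peaks to 0.18, with 34 higher and 3 lower at an unadjusted p under 0.05. Those values are read relative to that shift.

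Window log2 fold changes near 0 turned sign. With the abundance offset Gabarap was at -0.0030 and Map1lc3b at -0.0022, and DESeq2 gave Map1lc3b -0.0012. Gabarapl2 was at 0.059 with library size alone and 0.0095 with limma voom, and Atg4a at 0.019 with library size alone. When single libraries were left out, Gabarap ran from -0.12 to 0.16, Map1lc3b from -0.19 to 0.13, Gabarapl2 from -0.15 to 0.14, Atg4a from -0.27 to 0.20, Ulk1 from -0.052 to 0.22 and Tfeb from -0.26 to 0.00081. The cause was not tested.

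The groups share replicate numbers. Deviations of same-numbered samples correlated at 0.191, -0.121 and 0.0923 over windows, where differently numbered samples gave -0.26 to 0.199. Over peaks the same-numbered values were 0.0155, -0.0931 and -0.139, where the others ran from -0.0354 to 0.137. With 3 samples a group, these values do not show whether pools were paired. With a replicate block 0 windows and 1 peak were called, Gabarapl2 was at 0.012 and Atg4a at 0.020. With these depths and 3 pools a group, the median SE of a window was 0.14, and the count of 0 called windows does not show that differences of several times that size are absent.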
